A study of Mus musculus with 2 samples.

Results

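The desmosome genes described here are Dsg1a, Dsg2, Dsg3, Dsc1, Dsc2, Dsc3, Dsp, Jup, Pkp1 and Pkp3, 10 of the 16181 protein-coding genes with a promoter value in these data. They were chosen by name as the main structural genes of the keratinocyte desmosome, by a rule that uses names and positions and no measured value. Earlier results of these data were known when the genes were chosen. Every peak within 500 bp of one of their annotated transcription start sites or inside their gene bodies in mm10 was taken, which gave 16 promoter regions and 44 gene body regions among the 214119 regions in which both libraries had a peak.

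Desmosomes are the spot-like junctions that tie the keratin filaments of neighbouring keratinocytes together and let the epidermis bear mechanical stress. Their transmembrane part is made of desmosomal cadherins, the desmogleins (Dsg) and desmocollins (Dsc), whose tails bind the armadillo proteins plakoglobin (Jup) and plakophilins (Pkp), and these in turn bind desmoplakin (Dsp), which anchors keratin. Isoforms are exchanged as keratinocytes leave the basal layer: Dsg3 and Dsc3 are best known from the lower layers, Dsg1 and Dsc1 from the upper layers, and Dsg2 and Dsc2 also serve simple epithelia and heart muscle.

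Open chromatin was profiled cell by cell with ATAC-seq in back skin of E16.5 mouse embryos, with 1 library from a Control and 1 from a MOF cKO of genotype MOFfl/fl/K14Cre, in which Cre under the keratin 14 promoter removes MOF (Kat8), the acetyltransferase of histone H4 lysine 16, in epithelial but not in dermal cells. Both groups carried K14-H2BGFP, and sorted GFP+ and GFP- cells were recombined at a ratio that the sample labels give as 5:1 and other descriptions of the study give differently, so the cell type shares were set by the sort. The labels name the genotype of the Control as Control and no further, the study used littermate controls, and whether a library pooled embryos is not given in the sources used here.

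The Control library held 2541 barcodes and the MOF cKO library 4348, with medians of 62973 and 66239.5 transposition sites per barcode, and 21 barcode sequences occurred in both. Cells were named from marker accessibility, which gave 1699 epithelial-like and 574 fibroblast-like cells in Control and 2633 and 1208 in MOF cKO. Each epithelial-like cluster had at least 8 of 10 epithelial markers raised over the other clusters. The epithelial-like clusters separated almost fully by library: clusters 1, 6 and 8 held the 1699 Control cells and clusters 0, 3, 5 and 11 all MOF cKO cells except 10, 28 and 5 that fell in clusters 1, 6 and 8, so a difference between genotypes and a difference between clusters cannot be told apart. Cluster 8, with 340 Control cells at a median of 2606 sites, was much shallower than the rest. The targeted gene was no check of the deletion, since its promoter level, 50.8 CPM in Control and 37.9 CPM in MOF cKO epithelial-like cells, lies at the start of a gene whose deleted part is not given in the sources used here.

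Levels are given in CPM, sites in the promoter or region per 1000000 sites in shared regions of the same cell class and library. With 1 library per genotype no difference between genotypes could be tested. Intervals in brackets are exact 95% intervals on fragments and cover counting error alone, so the spread between embryos is unknown. Sums over a class also cannot tell fewer open cells from a lower signal in each cell.

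In epithelial-like cells 9 of the 10 desmosome promoters were lower and 1 was higher in MOF cKO than in Control, beside 84.8% lower of all promoters. The promoter of Dsg1a was 2.33-fold lower and that of Dsg3 was 1.36-fold higher, and the other 8 lay between log2 changes of -0.72 and -0.09. The median over the 10 genes was -0.51, beside -0.41 over all 16181 promoters, a difference of -0.10 from the shift common to all promoters. Promoters 1.5-fold or more lower numbered 5 of 10 (Dsg1a, Dsg2, Dsc1, Dsc3 and Dsp) against 18.1% of all promoters, and 0 of 10 were 1.5-fold or more higher against 4.49%. These counts depend on the scaling: with median-of-ratios size factors, which set the median promoter to no change, 6 of 10 were lower against 50% of all promoters. By 1.5-fold 1 was then lower, against 2.42%, and 1 higher, against 10.2%. Per cell 8 of 10 were lower, against 76%. With each library's own peak total 9 of 10 were lower, against 89%, and 5 of 10 by 1.5-fold, against 43.6%. Dsc2, Jup and Pkp3 are the genes that turned from lower to higher under median-of-ratios scaling, and Pkp3 also did so per cell. With every cell thinned to 5000 sites the interval of the change relative to the median promoter included 0 for each member except Dsg3 (0.84 [0.41, 1.27]). Thinning left few sites, such as 67 in Control and 61 in MOF cKO at Dsg1a beside 1073 and 813 without it. These intervals are therefore wide, and including 0 does not show that a change is absent. Directions below are those of the CPM scale, and the promoter change of each member is also given relative to the median promoter.

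**Figure D1:**
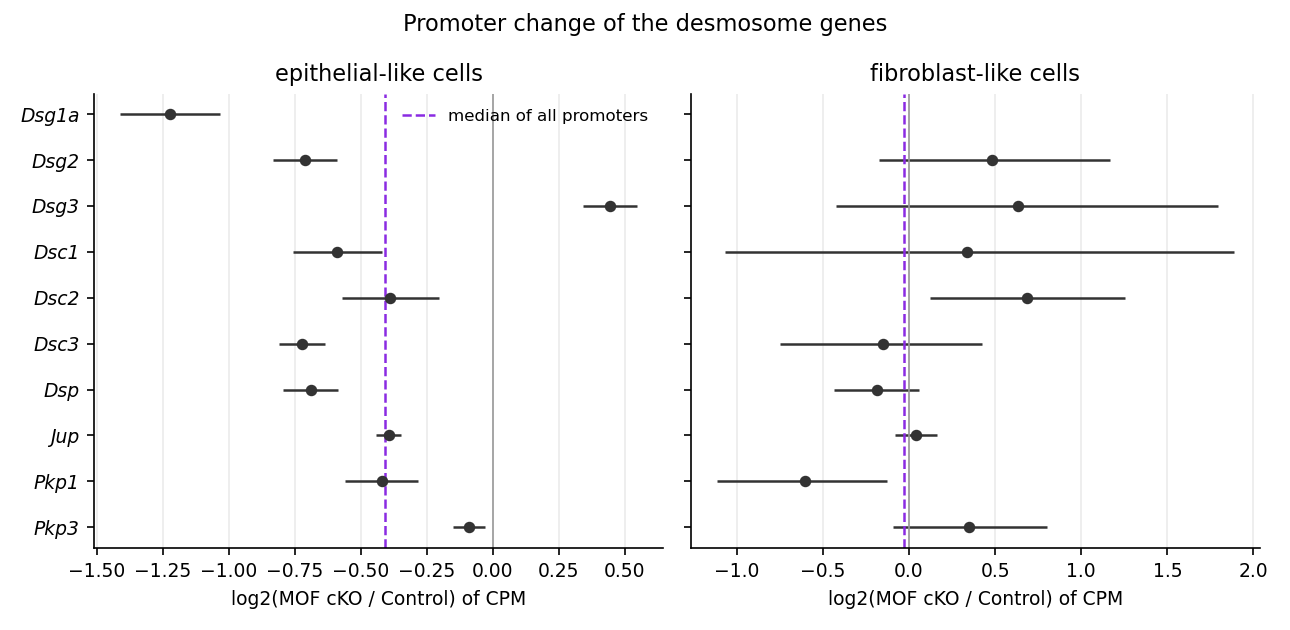
Promoter change of each desmosome gene as log2(MOF cKO / Control) of CPM (x axis) in epithelial-like and fibroblast-like cells, with points for the value, bars for the 95% counting interval and a dashed line for the median of all promoters (-0.41 and -0.03); Dsg1a has no point in fibroblast-like cells because it fell under the minimum of 20 sites. In epithelial-like cells Dsg1a lies farthest to the left and Dsg3 alone to the right of 0, and with median-of-ratios scaling Dsc2, Jup and Pkp3 would also lie to the right of 0.

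The desmogleins moved apart. Dsg1a, the upper-layer desmoglein, had 9.21 CPM at its promoter in Control and 3.95 CPM in MOF cKO, a log2 change of -1.22 [-1.41, -1.03]. Relative to the median promoter this was -0.81, at percentile 1.05 of all promoters, and it was -0.60 [-1.40, 0.11] when every cell was thinned to 5000 sites. The value is uncertain because Dsg1a has near-identical neighbours, among which reads could be lost or misplaced. The promoter of the neighbouring copy Dsg1b went from 10.6 to 5.41 CPM (-0.96 [-1.13, -0.80]), which is not independent of the Dsg1a value where the copies share reads, and the mappability of either was not tested. Dsg2, which is widespread in simple epithelia, went from 18.1 to 11.1 CPM (-0.71 [-0.83, -0.59]), or -0.30 relative to the median promoter. Dsg3, the desmoglein of the lower layers and the main antigen in pemphigus vulgaris, went the other way, from 18.9 to 25.8 CPM (0.45 [0.34, 0.55]), which was 0.85 relative to the median promoter and at percentile 94.1. The higher level of Dsg3 came from one of its 2 promoter regions: the region over the annotated start went from 10.7 to 17.7 CPM (0.73 [0.60, 0.86]), while the one centred 0.63 kb downstream held 8.20 and 8.01 CPM (-0.03 [-0.20, 0.13]).

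The 3 desmocollin promoters were all lower. Dsc3, the lower-layer desmocollin and the most open cadherin promoter of the set, went from 36.3 to 22.0 CPM (-0.72 [-0.81, -0.64]). Dsc1, the desmocollin of the cornifying layers, went from 9.21 to 6.12 CPM (-0.59 [-0.76, -0.42]), and this was concentrated in the region over its 5′ end (6.59 to 3.65 CPM, -0.85), with -0.09 in the region 0.72 kb into the gene. Dsc2 differed least, with 7.27 CPM in Control and 5.55 CPM in MOF cKO (-0.39 [-0.57, -0.20]), or 0.02 relative to the median promoter. Relative to that median the values were -0.31 for Dsc3 and -0.18 for Dsc1, and the latter turned to 0.03 when every cell was thinned to 5000 sites.

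On the CPM scale the 4 plaque gene promoters were lower, by log2 changes from -0.69 to -0.09. Dsp, which links the plaque to keratin, had 24.7 CPM in Control and 15.3 CPM in MOF cKO (-0.69 [-0.79, -0.59]), or -0.28 relative to the median promoter. Jup, which is shared with adherens junctions, had the highest summed promoter level, 106 CPM in Control and 80.3 CPM in MOF cKO (-0.39 [-0.44, -0.35]), or 0.01 relative to the median promoter. The region over the 5′ end of Jup carried most of this signal (76.6 and 63.1 CPM, -0.28), and the region at the internal start 11.05 kb downstream was lower by more (27.5 and 15.8 CPM, -0.79 [-0.89, -0.69]). Pkp1, the plakophilin of upper-layer desmosomes whose loss causes skin fragility in people, went from 12.8 to 9.55 CPM (-0.42 [-0.56, -0.28]), or -0.01 relative to the median promoter. With every cell thinned to 5000 sites this direction turned, to 0.14 [-0.44, 0.76], on 74 and 147 sites. Pkp3, found throughout the epidermis, had 61.3 and 57.5 CPM (-0.09 [-0.15, -0.03]), or 0.32 relative to the median promoter. Its 3 promoter regions did not move together. The region 0.82 kb from the annotated start went from 41.0 to 26.8 CPM (-0.61 [-0.69, -0.53]), the one at 1.87 kb from 13.3 to 16.0 CPM (0.27 [0.14, 0.39]) and the one at the internal start at 9.82 kb from 6.93 to 14.7 CPM (1.09 [0.92, 1.25]). With the start of the gene record alone, which keeps the first of them, the relative change of Pkp3 was -0.19, and a Control peak over that start had no counterpart in the MOF cKO list and is in none of these values.

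The promoter sequences of Dsp and Jup are shown because they are the 2 of 10 members with an entry in the RefSeq promoter table used (GRCm38.p6). These promoters also had the smallest ratios of epithelial-like to fibroblast-like level in Control. Both run from 250 bases before to 50 bases after the RefSeq start, 5′ to 3′ on the strand of the gene, at chr13:38151044-38151343 (plus strand) for Dsp and chr11:100397741-100398040 (minus strand) for Jup. Capitals mark matches on either strand to 5 searched motifs. A GC box was searched as GGGCGG, the CCAAT box by the letters of its name and a TEAD motif as GGAATG. An AP-1 motif was searched as TGANTCA and a grainyhead-like one as AACCGGTT.
Dsp promoter: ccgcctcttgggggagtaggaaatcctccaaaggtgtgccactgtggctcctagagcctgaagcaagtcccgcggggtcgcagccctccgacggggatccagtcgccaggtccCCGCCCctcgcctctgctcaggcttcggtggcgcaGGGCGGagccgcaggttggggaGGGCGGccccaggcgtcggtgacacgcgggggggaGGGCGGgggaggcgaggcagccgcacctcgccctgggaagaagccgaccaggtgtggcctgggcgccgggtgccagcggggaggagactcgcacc
Jup promoter: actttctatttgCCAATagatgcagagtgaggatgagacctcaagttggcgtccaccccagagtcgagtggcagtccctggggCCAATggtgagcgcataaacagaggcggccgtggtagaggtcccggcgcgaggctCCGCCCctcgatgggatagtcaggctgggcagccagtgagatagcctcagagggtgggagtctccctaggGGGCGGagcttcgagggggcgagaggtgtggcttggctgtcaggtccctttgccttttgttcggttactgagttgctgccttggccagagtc
The Dsp window held 4 GC boxes and no CCAAT box and was 73% G or C, and the Jup window held 2 GC boxes and 2 CCAAT boxes at 60.7% G or C. Of the 32851 promoter windows of the same length in the table, 35.7% held a GC box, 37.4% a CCAAT box, 7.81% an AP-1 match, 14.7% a TEAD match and 0.146% a grainyhead-like match. A match is a description of the letters and not a bound site.

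In fibroblast-like cells, in which K14-Cre is not expected to act, the median over the 9 desmosome promoters with at least 20 sites was 0.34, beside -0.03 over all promoters. Of the 9, 3 were lower and 6 higher, beside 58.0% lower of all promoters. Of the same 9, 1 (Pkp1) was 1.5-fold or more lower against 2.39% of all promoters, and 2 (Dsg3 and Dsc2) were 1.5-fold or more higher against 4.45%. Per cell the direction of the set turned, with 6 lower and 3 higher, beside 93.2% lower of all promoters. Apart from Jup (47.6 and 48.9 CPM, 0.04) and Dsp (11.9 and 10.4 CPM, -0.19), these promoters held under 5 CPM and their intervals were wide. Dsc2 had 1.92 and 3.09 CPM (0.69 [0.12, 1.26]) and Pkp1 3.56 and 2.35 CPM (-0.60 [-1.12, -0.13]), while the intervals of the other 7 changes included 0. Dsg1a had 8 sites in Control and 10 in MOF cKO fibroblast-like cells, too few for a ratio.

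The ratio between epithelial-like and fibroblast-like cells differed widely among the desmosome promoters. In Control all 10 were 1.5-fold or more higher in epithelial-like than in fibroblast-like cells, against 14.4% of all promoters, and in MOF cKO 9 of 10 were, against 12.1%. In Control it was 44.9-fold [17.4, 165] for Dsg1a, 33.6-fold [18.7, 67.5] for Dsg3, 25.7-fold [12.4, 64.1] for Dsc1, 18.4-fold for Pkp3, 16.3-fold for Dsc3 and 12.2-fold for Dsg2. The intervals of neighbours in this list overlapped, so they give no order among them, and the Dsg1a, Dsc1 and Dsg3 ratios rest on 8, 14 and 22 fibroblast-like sites. Dsc2 (3.78-fold) and Pkp1 (3.59-fold) followed at a distance, and Jup at 2.22-fold [2.07, 2.38] and Dsp at 2.08-fold [1.81, 2.39] had the smallest ratios. In MOF cKO the ratios were smaller for 9 genes: 24.4-fold for Dsg1a, 13.5-fold for Dsc1, 10.98-fold for Dsc3, 5.34-fold for Dsg2, 1.80-fold for Dsc2, 1.64-fold for Jup and 1.47-fold for Dsp. The intervals of the libraries did not overlap for Dsg2, Dsc2, Jup and Dsp. Pkp1 was the exception, at 4.07-fold [3.23, 5.28] beside 3.59-fold [2.79, 4.62] in Control. The share of all promoters with a smaller ratio in MOF cKO, or with intervals of the libraries that did not overlap, was not computed. Over all promoters the median log2 change was -0.41 for the epithelial-like class, against -0.03 for the fibroblast-like class. A fall on the epithelial-like side was thus common among promoters, and the ratios of the desmosome genes were not set against it. Cluster 10, which was shallow and stayed unnamed (87 Control and 54 MOF cKO cells), is left out here. The other remaining cells were immune-like, muscle-like and endothelial-like cells and clusters 12 and 13, which are given by number. Cluster 12 had 4 of 6 mural markers raised but as many of another class, and cluster 13 had 3 of 5 melanocyte markers raised but was led by Gjc3 and Gpr17, which are known from glia. In these 5 groups the promoter of Jup held between 60.1 and 87.3 CPM in both libraries, and that of Dsp between 5.75 and 23.9 CPM. Dsg1a was at 0 sites in the muscle-like cells and in clusters 12 and 13 of both libraries. Each of these groups held between 10 and 281 cells per library, so that single levels rest on few sites.

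**Figure D2:**
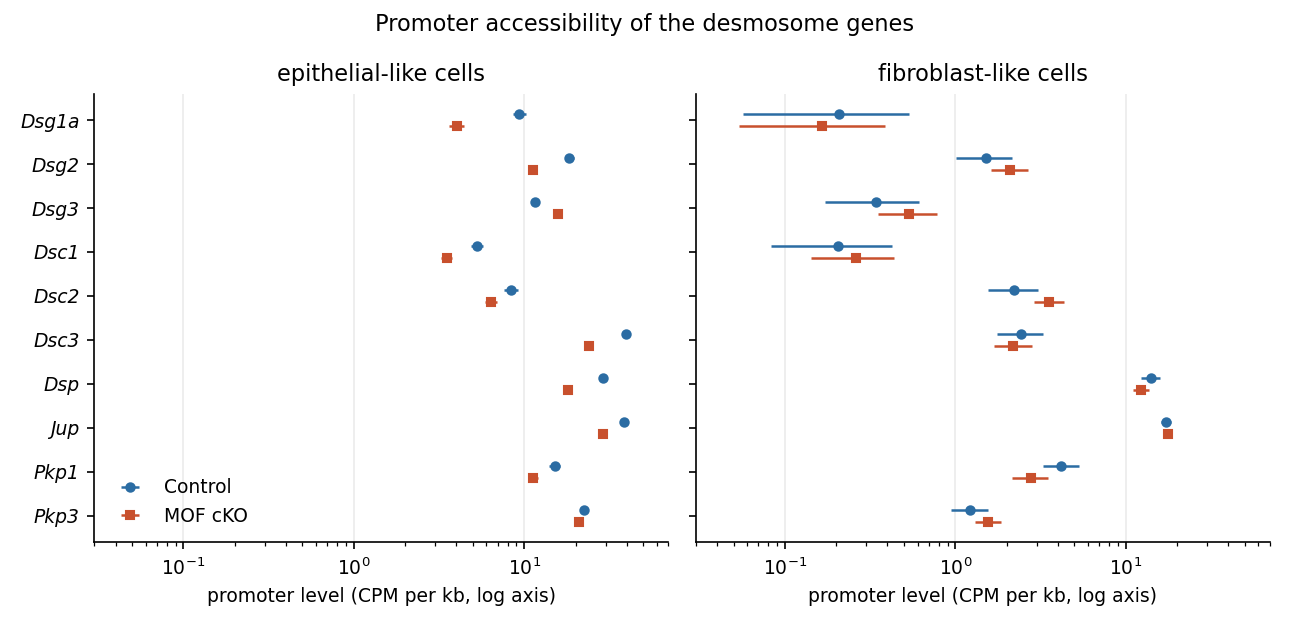
Promoter level of each desmosome gene in CPM per kb of promoter region (x axis, log scale) in epithelial-like and fibroblast-like cells of Control (circles) and MOF cKO (squares), with bars for the 95% counting interval. In epithelial-like cells the points of Control span 5.28 (Dsc1) to 39.6 (Dsc3) CPM per kb, and in fibroblast-like cells Dsp and Jup stand far to the right of the cadherins.

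Per kb of promoter region, so that genes can be compared, and averaged over all promoter regions of a gene, the order of levels in Control epithelial-like cells was Dsc3 (39.6 CPM per kb), Jup (38.3), Dsp (29.1), Pkp3 (22.5), Dsg2 (18.4), Pkp1 (15.1), Dsg3 (11.6), Dsg1a (9.38), Dsc2 (8.38) and Dsc1 (5.28). The intervals of the neighbours Dsc3 and Jup overlapped, as did those of Dsg1a and Dsc2, and the other neighbours did not overlap. The order depends on this averaging for genes with several annotated starts: the region over the 5′ end of Jup alone held 82.4 CPM per kb and the strongest of the 3 Pkp3 regions 48.2 CPM per kb, both above Dsc3. In MOF cKO the order was Jup (29.1 CPM per kb), Dsc3 (24.0), Pkp3 (21.1), Dsp (18.1), Dsg3 (15.7), Pkp1 (11.3), Dsg2 (11.2), Dsc2 (6.41), Dsg1a (4.02) and Dsc1 (3.51). There the intervals of Pkp1 and Dsg2 overlapped, as did those of Dsg1a and Dsc1. Dsg3 thus stood above Dsg2 in MOF cKO and below it in Control, and its margin over Dsg1a was 11.6 against 9.38 CPM per kb in Control and 15.7 against 4.02 CPM per kb in MOF cKO.

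The promoters were also compared by the share of cells with at least 1 site, counted after thinning every cell to 5000 sites and leaving out 265 Control and 40 MOF cKO epithelial-like cells with fewer. Of 1434 Control and 2593 MOF cKO epithelial-like cells, 4.39% [3.39, 5.59] and 2.24% [1.70, 2.88] had a site at Dsg1a, 8.16% [6.79, 9.70] and 11.1% [9.96, 12.4] at Dsg3, and 15.8% [13.98, 17.8] and 9.60% [8.50, 10.8] at Dsc3. For Dsp the shares were 11.2% [9.57, 12.9] and 6.98% [6.03, 8.03], and for Jup 40.1% [37.5, 42.7] and 32.2% [30.4, 34.0]. Shares were lower in MOF cKO for 8 of 10 genes, against 81.6% of all promoters, with a median difference of -2.41 percentage points beside -2.06 over all promoters. The exceptions were Dsg3 and Pkp1 (4.67% and 4.90%, with overlapping intervals). In fibroblast-like cells, the background for these shares, Dsg1a had a site in 0 of 574 Control cells, which allows a share of cells with a site of up to 0.523% (3 counts) and does not limit the share with an open promoter. Jup had one in 21.1% of Control and 19.0% of MOF cKO cells. Without thinning, at median depths of 62992 and 73652 sites, Dsg1a had a site in 23.6% of Control and 13.3% of MOF cKO epithelial-like cells and Dsg3 in 38.8% and 56.7%, and 7 of 10 genes were lower, against 32.7% of all promoters. Jup (76.9% and 87.2%) and Pkp3 (69.7% and 80.4%) were then higher in MOF cKO, the reverse of their thinned shares.

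Levels also varied among the epithelial-like clusters. Among the joint clusters of at least 100 cells, the level of Dsg1a ran from 4.19 CPM in Control cluster 6 to 12.6 CPM in Control cluster 1 and from 2.22 CPM in MOF cKO cluster 0 to 7.14 CPM in MOF cKO cluster 3. Dsc1 ran from 4.29 to 11.5 CPM in the Control and from 4.48 to 8.58 CPM in the MOF cKO clusters. The value of 4.29 CPM is that of the shallow cluster 8 and rests on few sites, and the next Control value was 5.92 CPM in cluster 6. For both genes the ranges of the libraries overlapped, so a MOF cKO cluster could exceed a Control one. Dsp did not overlap between these clusters, with 21.8 to 26.6 CPM in the Control clusters and 13.4 to 19.0 CPM in the MOF cKO clusters. The ranges of Dsg2, Dsc3 and Jup did not overlap either, with the Control clusters higher. The share of all promoters without overlap was not computed, and 84.8% of all promoters were lower in MOF cKO epithelial-like cells. The smaller sets of MOF cKO cells, 28 in cluster 6 and 94 in the shallow cluster 11, had 24.7 and 24.4 CPM at Dsp, inside the Control range. They had 13.4 and 18.7 CPM at Dsg2, 22.0 and 21.2 CPM at Dsc3 and 95.4 and 140 CPM at Jup. The value of cluster 11 lay inside the Control range for Dsg2 and above it for Jup (103 to 117 CPM). For Dsg3 the Control clusters held 15.8 to 21.0 CPM and the MOF cKO clusters 20.8 to 26.9 CPM, which overlapped by a narrow margin. The smaller MOF cKO sets of clusters 6 and 11 had 13.9 and 28.1 CPM at Dsg3, the first below the Control range. Without the shallow Control cluster 8 the changes relative to the median promoter were -0.82 for Dsg1a, 0.85 for Dsg3, -0.32 for Dsc3 and -0.28 for Dsp, close to those with it.

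Epithelial-like cells were then clustered again within each library without the regions of these genes, which gave 1 suprabasal-like cluster in each (86 Control and 237 MOF cKO cells) and a hair follicle-like cluster in Control (335 cells). These names rest on few markers: 4 of 12 suprabasal markers were raised in Control and 3 of 12 in MOF cKO, and 4 of 9 hair follicle markers. At Leiden resolution 2 the suprabasal-like name went to Control clusters of 136, 129 and 94 cells and MOF cKO clusters of 220 and 173 cells. No cluster had enough basal markers to be called basal-like, so suprabasal-like cells were set against all other epithelial-like cells of their library, a contrast chosen after this was seen. Neighbouring cells were grouped by accessibility at large, so these values are a description. The promoters of 9 of 10 genes were higher in suprabasal-like cells in either library, with 4 of 10 at 1.5-fold or more in Control, against 3.76% of all promoters, and 2 of 10 in MOF cKO, against 2.38%. The share of all promoters that were higher there was not computed, and their median log2 ratio was -0.04 in either library. Dsc1 held 20.6 CPM in suprabasal-like and 8.62 CPM in other Control cells, 2.39-fold higher, and 13.1 and 5.53 CPM in MOF cKO, 2.37-fold higher. Dsg1a held 16.9 and 8.81 CPM in Control (1.92-fold) and 9.73 and 3.46 CPM in MOF cKO (2.81-fold). Levels of both genes in suprabasal-like cells were lower in MOF cKO than in Control, as were 84.8% of all promoters in epithelial-like cells as a whole. These levels were not set against the median promoter. The clusters were made separately in each library, so they may not hold matched cells. Unnamed clusters also had high levels: on the log2 scale against the rest, Control cluster 5 had 0.84 at Dsg1a and 0.54 at Dsc1 and was higher at all 10 promoters, Control cluster 3 had 0.79 and 0.92, and MOF cKO clusters 0 and 2 had 0.67 and 0.85 at Dsg1a. The median promoter had -0.02 in Control cluster 5, and the share of all promoters higher there was not computed. The lowest value in Control was that of Pkp1 in unnamed cluster 2 (-1.55). Other unnamed clusters were low at Dsg1a and Dsc1, with -1.70 and -1.40 in MOF cKO cluster 3 and -1.39 and -0.83 in MOF cKO cluster 1. Control cluster 4 had -0.66 and -0.69 at these genes.

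Dsc3 was 1.52-fold higher in suprabasal-like cells in Control and 1.44-fold in MOF cKO, Dsg3 1.504-fold and 1.11-fold, and the interval for Dsg3 in MOF cKO included no change. Dsg2 was the one gene lower in Control (log2 -0.25 [-0.72, 0.19]) and Pkp1 the one lower in MOF cKO (-0.09 [-0.47, 0.24]), and both intervals included 0. Pkp1 was 1.498-fold higher in the Control contrast. In the hair follicle-like cells of Control, Dsg1a was 2.63-fold lower and Dsc1 1.75-fold lower than in the other epithelial-like cells, while Pkp1 (0.37 [0.14, 0.58]) and Dsg2 (0.26 [0.07, 0.45]) were higher on the log2 scale. Cluster 7 of Control, with 81 cells at a median of 132522 sites, had the fibroblast gene Twist2 among its leading genes and a level below that of the other cells at all 10 promoters, and MOF cKO cluster 5, with 187 cells at a median of 92234 sites, was led by genes that also led fibroblast-like clusters (Rnase10, Nnmt) and had a log2 ratio to the other cells below that of the median promoter at all 10. The median promoter had a log2 ratio of 0.07 in Control cluster 7, and the share of all promoters lower there was not computed. The part of doublets in either cluster was not tested.

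**Figure D3:**
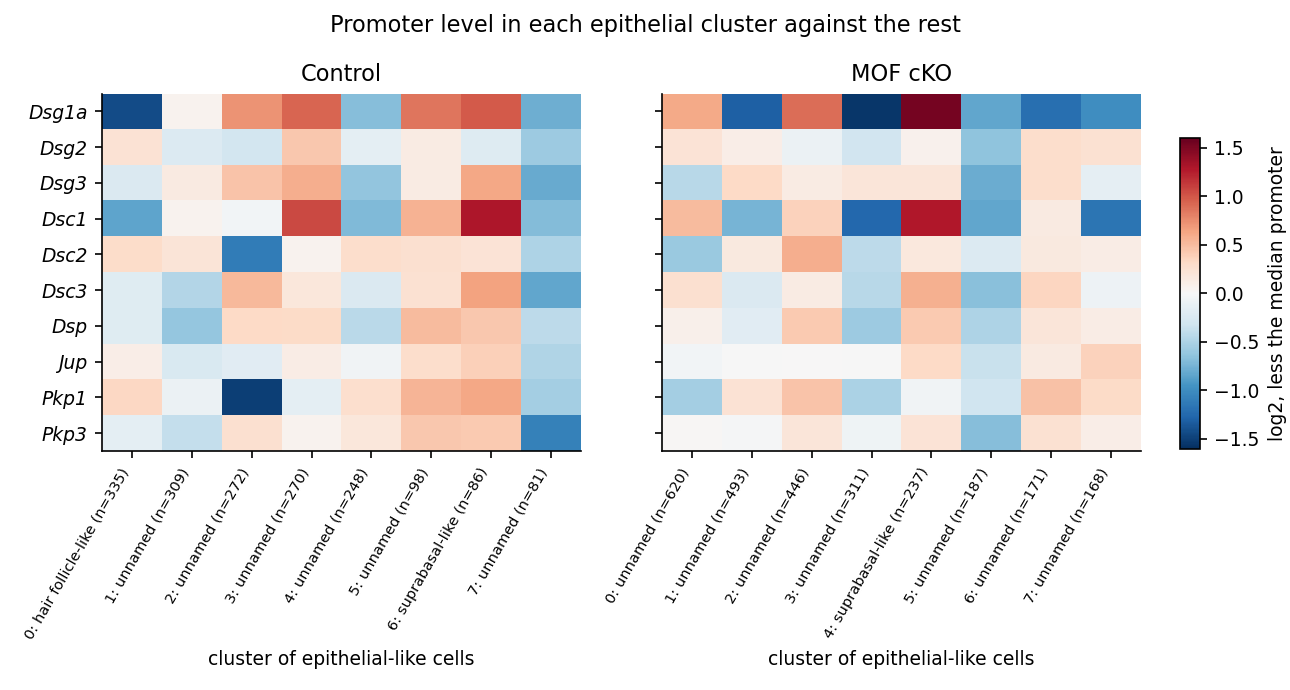
Promoter level of each desmosome gene (rows) in each cluster of epithelial-like cells against the other epithelial-like cells of the same library (columns, n cells), as log2 ratio less the median of all promoters, red for higher and blue for lower. Dsg1a and Dsc1 are high in the suprabasal-like cluster of either library and low in the hair follicle-like cluster of Control. Unnamed clusters also hold high and low values of both genes, such as the low ones of MOF cKO clusters 1 and 3.

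Inside the gene bodies the regions moved in both directions. Of the 44 gene body regions in epithelial-like cells, 23 were lower and 21 higher in MOF cKO, beside 56.1% lower of all gene body regions, with a median of -0.03 beside -0.13 over the 91656 gene body regions of all genes. Regions 1.5-fold or more lower numbered 11, or 25%, against 27.7% of all gene body regions, and regions 1.5-fold or more higher numbered 9, against 24.7%. Under median-of-ratios scaling 14 of the 44 were lower and 30 higher, against 35.7% lower of all gene body regions. By 1.5-fold 4 were then lower, against 14.3%, and 15 higher, against 36.6%. With each library's own peak total 29 were lower and 15 higher, against 62.3% lower. In fibroblast-like cells 39 regions had a value, 7 of them 1.5-fold or more lower, against 18.2% of all, and 10 higher, against 21.9%. Per cell these counts turned to 14 lower, against 37.7%, and 5 higher, against 11.1%. On the CPM scale the directions differed between the cadherins, with 9 regions lower and 12 higher of 21, and the plaque genes, with 14 lower and 9 higher of 23 and a median of -0.32, a difference that was not tested. Under median-of-ratios scaling more regions were higher than lower in both groups.

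**Figure D4:**
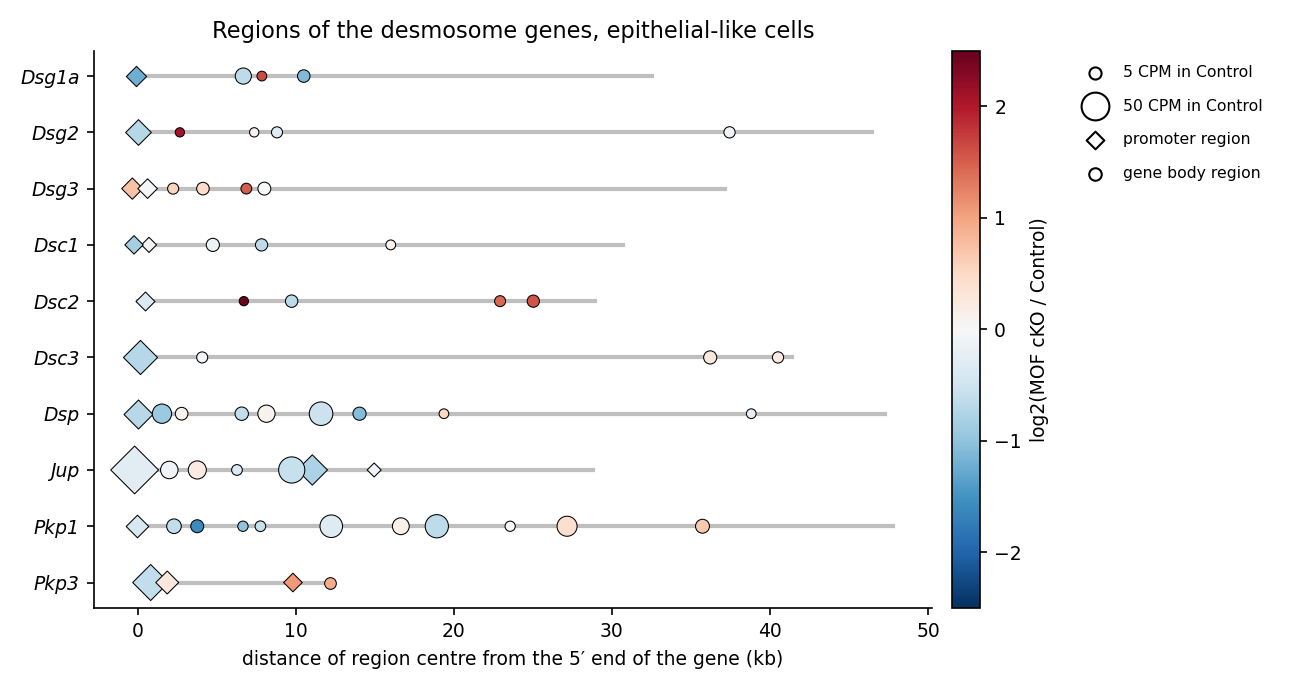
Each shared region of the desmosome genes at its distance from the annotated 5′ end of the gene in kb (x axis), coloured by log2(MOF cKO / Control) of CPM in epithelial-like cells and sized by the Control level, with diamonds for promoter regions, circles for gene body regions and grey lines for the gene. Of the 9 circles 1.5-fold or more higher, 7 lie in Dsc2, Dsg3, Dsg2 and Dsg1a, and the 4 largest circles, in Jup, Dsp and Pkp1, are blue on this scale, of which the Pkp1 circle at 12.2 kb turned under median-of-ratios scaling.

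The 5 regions with the highest ratio of MOF cKO to Control all lay in cadherin genes. An intronic region of Dsc2, 6.72 kb from its 5′ end, had 0.498 CPM in Control and 2.74 CPM in MOF cKO (2.46 [1.91, 3.07]), and an exon-bearing region 25.03 kb from its 5′ end had 5.13 and 15.4 CPM (1.58 [1.40, 1.76]). A further region at 22.9 kb was higher too (3.03 and 8.20 CPM, 1.44), while the fourth, at 9.74 kb, was lower (5.48 and 3.44 CPM, -0.67 [-0.90, -0.45]). The body of Dsc2 summed to 14.1 CPM in Control and 29.7 CPM in MOF cKO (1.07 [0.96, 1.18]), while its promoter was lower on the same scale. In Dsg2 a region 2.67 kb from the 5′ end had 0.549 and 2.33 CPM (2.09 [1.55, 2.67]). In Dsg1a a region at 7.86 kb had 1.22 and 3.796 CPM (1.64 [1.27, 2.02]), although its neighbours at 6.68 kb (13.2 and 8.34 CPM, -0.66) and 10.5 kb (5.66 and 2.61 CPM, -1.11 [-1.35, -0.88]) were lower. In Dsg3 a region at 6.88 kb had 2.69 and 7.73 CPM (1.52 [1.27, 1.78]), and 3 of its 4 body regions were higher, as its promoter was. Over the 4 Dsg3 body regions the sums were 18.01 and 26.8 CPM (0.58 [0.47, 0.68]). In fibroblast-like cells the 5 regions of highest ratio held at most 0.666 CPM.

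The 2 other desmocollins had smaller changes in their bodies. The 3 regions of Dsc3 summed to 13.5 CPM in Control and 15.4 CPM in MOF cKO (0.19 [0.06, 0.31]), against the lower level of its promoter. In fibroblast-like cells the same sum was lower in MOF cKO, with 1.54 and 0.550 CPM (-1.48 [-2.43, -0.58]), of which the region at 40.5 kb held 1.10 and 0.227 CPM (-2.28 [-3.78, -1.04]) on 43 and 14 sites. The 3 regions of Dsc1 summed to 13.3 and 10.8 CPM (-0.30 [-0.43, -0.16]), which would be an increase under median-of-ratios scaling.

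Among the plaque genes the strong intronic regions were mostly lower. In Dsp the strongest region, 11.6 kb from the 5′ end, had 34.3 CPM in Control and 23.5 CPM in MOF cKO (-0.55 [-0.63, -0.46]), the region at 1.54 kb had 21.2 and 11.1 CPM (-0.93 [-1.04, -0.81]) and the one at 14.04 kb 6.86 and 3.25 CPM (-1.08 [-1.29, -0.87]). In Jup the strongest region, at 9.75 kb, had 43.7 and 29.2 CPM (-0.58 [-0.66, -0.50]). The Jup region at 3.77 kb was higher, with 17.9 CPM in Control and 20.7 CPM in MOF cKO (0.21 [0.10, 0.32]). For the Dsp region at 8.15 kb (15.8 and 16.7 CPM, 0.09 [-0.03, 0.20]) and the Jup region at 2.003 kb (16.4 and 15.4 CPM, -0.08 [-0.20, 0.03]) the interval included 0 and the sign changed with the scaling. In fibroblast-like cells the Dsp regions at 1.54 kb (4.79 and 7.12 CPM, 0.57 [0.21, 0.93]) and 11.6 kb (3.64 and 6.41 CPM, 0.82 [0.42, 1.23]) were higher in MOF cKO. Summed over the body in epithelial-like cells, the change was -0.45 [-0.50, -0.40] for Dsp and -0.26 [-0.31, -0.20] for Jup, the latter an increase under median-of-ratios scaling.

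Pkp1 had 10 body regions, the most of the set, and they moved in both directions. The 4 regions nearest to its start, from 2.30 to 7.77 kb, were all lower, among them the region of lowest ratio of all 44, at 3.77 kb, with 6.48 CPM in Control and 2.16 CPM in MOF cKO (-1.58 [-1.83, -1.35]). A region at 6.66 kb had 2.04 and 1.02 CPM (-1.001 [-1.39, -0.61]). Farther in, the region at 12.2 kb was lower (-0.32 [-0.41, -0.23]), that at 16.6 kb slightly higher (0.13 [0.01, 0.25]) and that at 23.6 kb level (0.00 [-0.34, 0.35]), and the signs of these 3 turned with the scaling. The region at 18.9 kb had 33.2 and 21.2 CPM (-0.65 [-0.74, -0.56]), whereas those at 27.2 kb (23.3 and 31.1 CPM, 0.42 [0.33, 0.51]) and 35.7 kb (8.36 and 13.3 CPM, 0.67 [0.52, 0.82]) were higher. These opposite changes left the sum over the body at -0.15 [-0.20, -0.11], a sign that also turned with median-of-ratios scaling and per cell. The annotation places a further transcript of unknown coding status within Pkp1 and another over the start of Dsp, and signal of such overlapping genes could not be separated from that of the members.

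The central 200 bases of the intronic regions that carry these values are shown for Dsp, Jup and Pkp1, read on the plus strand of GRCm38.p6, the mm10 assembly, with the same motifs in capitals. The first 2 windows come from regions that were lower by a large ratio, the next 3 from the strongest body regions of their genes in Control, and the last from the body region outside the cadherin locus with the highest ratio among intronic ones. The windows of the Dsp region at 14.04 kb and the Pkp1 region at 6.66 kb, also among the 5 lowest ratios, are not shown. They held none of the searched motifs. Their positions are chr1:135915338-135915537, chr13:38152732-38152931, chr13:38162797-38162996, chr11:100387917-100388116, chr1:135900180-135900379 and chr1:135883375-135883574, in the order of the lines.
Pkp1 intron at 3.77 kb: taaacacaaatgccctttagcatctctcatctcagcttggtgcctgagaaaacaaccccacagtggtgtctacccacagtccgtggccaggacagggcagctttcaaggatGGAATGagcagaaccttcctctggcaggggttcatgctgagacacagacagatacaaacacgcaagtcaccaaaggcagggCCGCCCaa
Dsp intron at 1.54 kb: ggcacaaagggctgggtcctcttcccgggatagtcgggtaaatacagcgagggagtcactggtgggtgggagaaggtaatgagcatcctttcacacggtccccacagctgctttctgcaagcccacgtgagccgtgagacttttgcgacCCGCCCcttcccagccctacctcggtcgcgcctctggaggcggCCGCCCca
Dsp intron at 11.6 kb: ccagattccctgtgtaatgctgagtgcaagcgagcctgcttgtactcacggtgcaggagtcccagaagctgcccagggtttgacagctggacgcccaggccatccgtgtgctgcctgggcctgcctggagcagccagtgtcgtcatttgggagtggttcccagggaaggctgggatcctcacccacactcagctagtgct
Jup intron at 9.75 kb: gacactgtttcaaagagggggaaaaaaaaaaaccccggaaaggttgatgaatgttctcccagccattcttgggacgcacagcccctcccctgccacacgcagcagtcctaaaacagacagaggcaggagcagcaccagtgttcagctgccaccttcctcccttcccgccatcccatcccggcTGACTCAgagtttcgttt
Pkp1 intron at 18.9 kb: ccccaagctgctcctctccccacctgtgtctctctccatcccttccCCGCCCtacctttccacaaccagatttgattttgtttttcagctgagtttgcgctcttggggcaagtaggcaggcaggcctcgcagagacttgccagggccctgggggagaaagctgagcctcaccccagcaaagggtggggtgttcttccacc
Pkp1 intron at 35.7 kb: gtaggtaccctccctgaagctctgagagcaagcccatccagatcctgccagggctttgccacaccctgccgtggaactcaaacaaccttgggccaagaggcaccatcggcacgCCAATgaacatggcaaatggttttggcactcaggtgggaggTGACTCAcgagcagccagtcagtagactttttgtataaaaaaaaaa
An AP-1 match stood in the Jup window and in the Pkp1 window at 35.7 kb, and the Dsp window at 1.54 kb held 2 GC boxes at 63% G or C. Over all 44 body regions 11, or 25%, held an AP-1 match in their central 200 bases, against 17.0% of the 91656 gene body regions. Among the 11 regions 1.5-fold or more lower 1 held such a match, and among the 9 that were 1.5-fold or more higher 3 did. A CCAAT box stood in 10 of the 44 regions, against 22.3% of all, and in 5 of the 9 higher ones, and a GC box in 5 of 44, against 6.58%. The median G or C content was 48.5% in the members' windows and 47.5% in all. These counts are a description.

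The peak lists themselves, called in each library on its own, held 66 peaks in or at the desmosome genes in Control and 86 in MOF cKO. In Control 6 of them, or 9.09%, overlapped no peak of the other list, against 12.8% of all peaks in or at genes, and in MOF cKO 24, or 27.9%, against 33.2%. The longer MOF cKO list came from the library with more cells and sites. Dsc3 had 5 peaks in Control and 13 in MOF cKO, 9 of them in that list alone. These 9 were weak, at most 2.09 CPM of the library's own peak total in MOF cKO epithelial-like cells. Dsg2 had 5 and 9 peaks and Dsp 9 and 14, with 4 in the MOF cKO list alone in each.

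**Figure D5:**
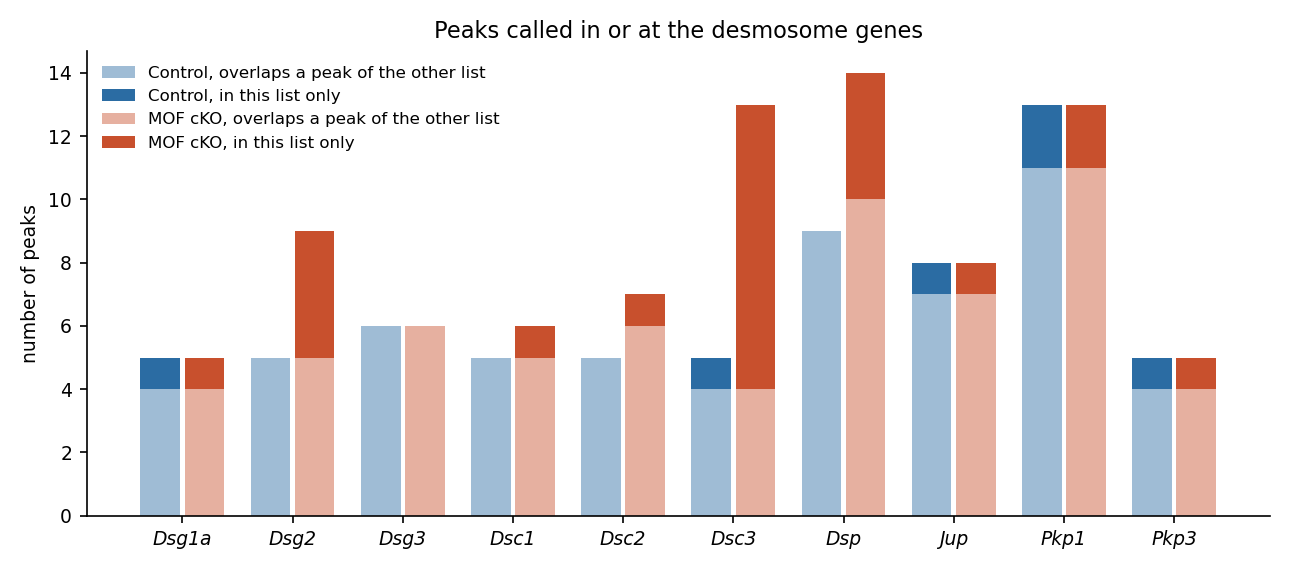
Number of peaks (y axis) called in or at each desmosome gene in Control (blue) and MOF cKO (orange), with the dark part for peaks that overlap no peak of the other list. Dsc3, Dsg2 and Dsp have 9, 4 and 4 peaks in the MOF cKO list alone, of which 4, 1 and 3 are left among equal numbers of the strongest peaks, and Dsg3 has 6 in either list, all shared.

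A few one-library peaks were strong in epithelial-like cells. A Control peak at chr7:141077703-141078315, over the annotated start of Pkp3, held 11.04 CPM of the library's own peak total. A MOF cKO peak in Dsp at chr13:38172838-38173733 held 7.13 CPM, and Pkp1 had both a Control peak (chr1:135890780-135891445, 6.23 CPM) and a MOF cKO peak (chr1:135898914-135899575, 6.44 CPM) of that kind. Each lacked a called peak in the other library and so has no value there, and these 4 are not part of the changes above. In fibroblast-like cells the 4 peaks held between 0.287 and 0.445 CPM.

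Genes of the neighbouring junctions and of the desmosome's partners gave a setting for these values. Of 9 other desmosome and envelope genes 6 had a promoter value in epithelial-like cells, and all 6 were lower, beside 84.8% of all promoters, with a median of -0.40, close to the -0.41 of all promoters. Dsg1b (-0.96) and Pkp4 (-0.63 [-0.70, -0.57]) were 1.5-fold or more lower, a size that 18.1% of all promoters reached, and the periplakin gene Ppl had the smallest change of the 6 (-0.14 [-0.25, -0.03]). Of 8 adherens junction genes all 8 were lower, with a median of -0.53 and 3 lower by 1.5-fold or more. Ctnnd1, which encodes p120-catenin, was the lowest of them, from 48.7 to 28.4 CPM (-0.78 [-0.85, -0.70]), and Ctnnb1, which encodes beta-catenin, went from 26.6 to 17.2 CPM (-0.64). Of 9 tight junction genes 7 had a value, with a median of -0.38, 1 was 1.5-fold or more lower, and Cldn4, which encodes claudin-4, was higher (31.1 and 35.3 CPM, 0.18 [0.10, 0.26]). Under median-of-ratios scaling 3 of the 6 partner genes (Dsg1b, Pkp4 and Evpl), 7 of the 8 adherens junction genes and 3 of the 7 tight junction genes were lower, none of them by 1.5-fold, and Ppl was among those that turned to higher. Pkp4, and Cdh3 (-0.60) and Tjp3 (-0.62) among the 1.5-fold lower genes of the other lists, were named after their values were seen. In fibroblast-like cells the medians of the 3 lists were 0.07, 0.00 and -0.02.

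Across the 11 combinations of class and library with at least 20 cells, the promoters whose log2 level followed the mean of the 10 desmosome genes most closely were Trpv3 (Pearson r 0.979), Cldn8 (0.977), Tepp (0.969), Sh3rf2 (0.969) and Urah (0.958). The members' own values ran from 0.55 for Jup to 0.93 for Dsg3. Each member is part of the mean it was set against, so these values are not comparable with those of the other genes. The muscle-like and endothelial-like cells and cluster 12 reached 20 cells in MOF cKO alone. These points share libraries and depth, and the separation of epithelial-like from other cells makes up most of the range, so the values are a description over 11 groups.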

How the data were processed

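The deposited files were peak lists and matrices of raw counts, which the authors made with cellranger-atac 2.0.0 (file headers) on mm10, calling peaks and cells in each library separately; the submitters' processing notes also name Cell Ranger ARC. A value counts transposition sites in 1 peak and 1 cell. No normalization had been applied. Most values (88.8% and 91.6%) were even, which fits fragments with both cuts in 1 peak, so intervals used fragments, taken as sites over 2.

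Peaks of both lists were merged, and regions with a peak from each library (1 bp overlap) were kept as shared regions. Start sites came from the GENCODE annotation of GRCm38. Barcodes with at least 1000 sites were kept as cells, which left out 60 Control barcodes. Cells were clustered without 109 regions of these genes and their locus, on 50000 regions, 29 of 30 singular vectors, 20 neighbours and Leiden resolution 1. A cluster was named from markers 2-fold above the other clusters (1.5-fold within epithelial-like cells, pseudocount 1 CPM, at least 3 markers). Doublets were not removed; the cells with the top 5% of doublet scores were left out as an alternative. Features needed 20 sites in the libraries combined. All intervals were exact and at 95%: Poisson for levels, conditional binomial for ratios and Clopper-Pearson for shares, with a share of 0 limited by 3 counts. With 1 library per genotype no test was made.

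The gene members, comparison lists, markers and named-region rule (the 5 highest and 5 lowest ratios among gene body regions with at least 100 epithelial-like sites, the 3 largest and 3 smallest changes in the comparison lists, and the 5 promoters most like the members' mean) were chosen with earlier results of these data known. The value of 1 gene that this rule names is not reported here. Scaling, depth, doublet, resolution, window, start site and overlap alternatives were recomputed. The computation of changes and intervals was tested on simulated data. Clustering used scikit-learn 1.9.0, leidenalg 0.10.2 and python-igraph 0.11.9. Regions were joined with bedtools 2.31.1 and sequences read with pysam 0.24.0 and samtools 1.23.1. Figures were drawn with matplotlib 3.10.9, and the rest ran in Python 3.11.15 on scipy 1.17.1, pandas 2.3.3 and numpy 2.4.6.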

Additional observations from a re-analysis of the deposited data

Results flagged for a closer look

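For 9 promoters and 39 gene body regions the change between MOF cKO and Control had a value in both classes. In 4 of these features it was of opposite sign between the epithelial-like class and the fibroblast-like class, with both intervals clear of 0. How many of all promoters or all gene body regions meet this rule was not computed. The rule did not subtract the median promoter change, which was -0.41 for the epithelial-like class and -0.03 for the fibroblast-like one. The difference between the classes was not tested, because each genotype is 1 library. The promoter of Dsc2 had a log2 change of -0.39 in epithelial-like cells but 0.69 in fibroblast-like ones. The intronic region of Dsp 1.54 kb from its 5′ end had -0.93 and 0.57, and the one at 11.6 kb had -0.55 and 0.82. The intronic region of Pkp1 at 12.2 kb, with 31.0 and 24.8 CPM in epithelial-like cells and 13.4 and 17.3 CPM in fibroblast-like ones, had -0.32 and 0.36. Under median-of-ratios scaling the epithelial-like change of Dsc2 became 0.02 and that of the Pkp1 region 0.09, so their signs were no longer opposite, and per cell the fibroblast-like change of the Pkp1 region became -0.05. The 2 Dsp regions kept opposite signs under these scalings, although per cell the fibroblast-like interval of the one at 1.54 kb included 0. The sums over the gene body regions of 3 of the 10 genes also had opposite signs with both intervals clear of 0, which was not tested either. The share of all genes with such sums was not computed. The sum of Dsc3 was 0.19 among epithelial-like but -1.48 among fibroblast-like cells, that of Dsp -0.45 and 0.57, and that of Pkp1 -0.15 and 0.23. Those of Dsc3 and Dsp kept opposite signs under the 3 other scalings, although the epithelial-like interval of Dsc3 included 0 with the own peak total, as did that of Dsp under median-of-ratios scaling and the fibroblast-like one of Dsp per cell. Those of Pkp1 were both positive under median-of-ratios scaling (0.25 and 0.26) and each turned per cell (0.03 and -0.18). These sums were compared after seeing the data.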

How the results depend on the processing

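No paired analysis was possible because each genotype is 1 library and the result comes from no test. For the same reason no replicate could be left out. The median promoter change of the members relative to all promoters ran from -0.19 at Leiden resolution 2 to 0.00 with cells thinned to 5000 sites in epithelial-like cells, and from -0.04 to 0.37 in fibroblast-like cells, where thinning left 4 members with a value. For gene body regions in epithelial-like cells it ran from -0.13 to 0.09 and so changed sign. Of the recomputed values for single promoters and regions 308 moved by less than their counting interval and 21 moved by more. Thinning to 5000 sites took the relative promoter change in epithelial-like cells from -0.81 to -0.60 for Dsg1a and from -0.01 to 0.53 for Pkp1, whose change on the CPM scale turned to 0.14 [-0.44, 0.76]. With thinning the interval of the relative change included 0 for all members but Dsg3. Thinning removed most sites and so widened these intervals. For 2 values with an interval clear of the median of all promoters, the direction turned: the relative change of the Dsc1 promoter in epithelial-like cells was 0.0267 with cells thinned to 5000 sites, and that of Pkp3 was -0.187 with the start of the gene record alone, which drops the promoter regions at later starts. Among equal numbers of the strongest peaks 10.6% of the members' Control peaks and 18.9% of their MOF cKO peaks overlapped none of the other list, against 22.6% and 22.9% of all peaks in or at genes. Depth limits the fibroblast-like values, where several members had fewer than 100 sites per library. The planned contrast of suprabasal-like with basal-like cells was not run because no cluster met the basal-like rule, and the shallow Control cluster was named by its markers, so it was left out as an alternative, chosen after seeing the data, instead of being added.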
